A study of Ovis aries with 20 samples.

Results

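The genes described here are 33 genes of glycolysis and the response to low oxygen, chosen by name from a list. All 33 were among the 28524 genes of the table, and all 33 passed the filter on low values (5 or more libraries at a value of 10 or above), as did 16269 genes in all. They comprise 15 glycolytic enzymes, 2 lactate dehydrogenases, 4 glucose and lactate transporters, 3 switches of glucose use, 3 genes of oxygen sensing and 6 hypoxia-responsive genes. The study asked what prenatal testosterone excess does to follicle cells of the adult sheep ovary, a model of polycystic ovary syndrome. Ewes carrying the treated females received 100 mg of testosterone propionate (1.2 mg/kg) by intramuscular injection 2 times a week between gestation days 30 and 90, and those carrying the controls received vehicle over the same days. The daughters' ovaries were taken at 21 months of age, 18 hours after the second of a pair of 10 mg prostaglandin F2α injections given 11 days apart, a synchronization that both groups shared. Granulosa and theca layers of several antral follicles per animal were cut out of 14 µm frozen sections by microdissection and pooled by layer, so a library is an average over follicles of 1 ewe, and the fate of single follicles cannot be read from it. The table holds 4 control and 5 prenatal testosterone (prenatal T) granulosa libraries and 5 and 5 theca libraries, from 10 animals, of which 9 gave both layers. Levels are given as normalized counts, which depend on transcript length, so levels are compared between libraries and not between genes. Where values are listed for every library, controls stand in the order of sheep 224, 244, 246 and 268, preceded by 139 in theca, and prenatal T animals in the order of sheep 209, 210, 230, 276 and 315.

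Glycolysis turns glucose into pyruvate in the cytosol, and lactate dehydrogenase turns pyruvate into lactate, which leaves the cell through monocarboxylate transporters. Granulosa cells line the follicle inside the basement membrane without blood vessels of their own, while the theca around them is vascularized, and granulosa cells are known to feed pyruvate and lactate to the oocyte. When oxygen falls, the prolyl hydroxylases EGLN1 and EGLN3 hydroxylate the transcription factor subunit HIF1A less, the protein accumulates, and it raises transcription of most glycolytic genes and of genes such as VEGFA, which attracts vessels, and BNIP3, which removes mitochondria. HIF1A itself is controlled mainly as a protein, which RNA counts do not measure.

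The 19 libraries held 12.7 to 26.0 M reads assigned to genes. Members took 0.708 to 0.796% of the reads in control granulosa and 0.324 to 0.412% in control theca, and 0.716 to 0.944% and 0.340 to 0.431% in the prenatal T libraries of these layers other than those of sheep 209, which were at 0.971% and 0.822%. Granulosa marker genes summed to 52766 to 192035 in the granulosa libraries and 17928 to 37885 in the theca libraries of animals other than sheep 209, and theca markers to 20928 to 84267 and 595646 to 891121, so each layer held some RNA typical of the other. Both libraries of prenatal T sheep 209 stood apart. The granulosa genes AMH, FSHR and CYP19 (aromatase) were at 0 in its granulosa library and the theca gene CYP17A1 was at 0 in its theca library, which goes against their labels. The granulosa marker sum hardly separated its layers, at 24124 in granulosa, below every other granulosa library, and 22136 in theca. Markers of cells on the theca side were higher in its theca than in its granulosa library, as labelled. Theca markers summed to 26807 in its granulosa and 380374 in its theca library, the latter below every other theca library. Their mean log2 level in its theca library was 10.55, against 13.13 to 13.52 in the other theca libraries. Smooth muscle and pericyte markers summed to 15693 and 271434, and endothelial markers to 6698 and 23871. Neutrophil markers (6 of 7 in the table) summed to 64370 in its granulosa and 36549 in its theca library against 16.7 to 296 and 61.4 to 627 in the other animals, epithelial markers (8 of 8) to 91389 and 22373 against 149 to 4014 and 104 to 682, and other leukocyte markers (8 of 9) to 14286 and 17294 against 178 to 1928 and 599 to 2126. Results are therefore given with and without the library or libraries of this animal.

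**Figure D1:**
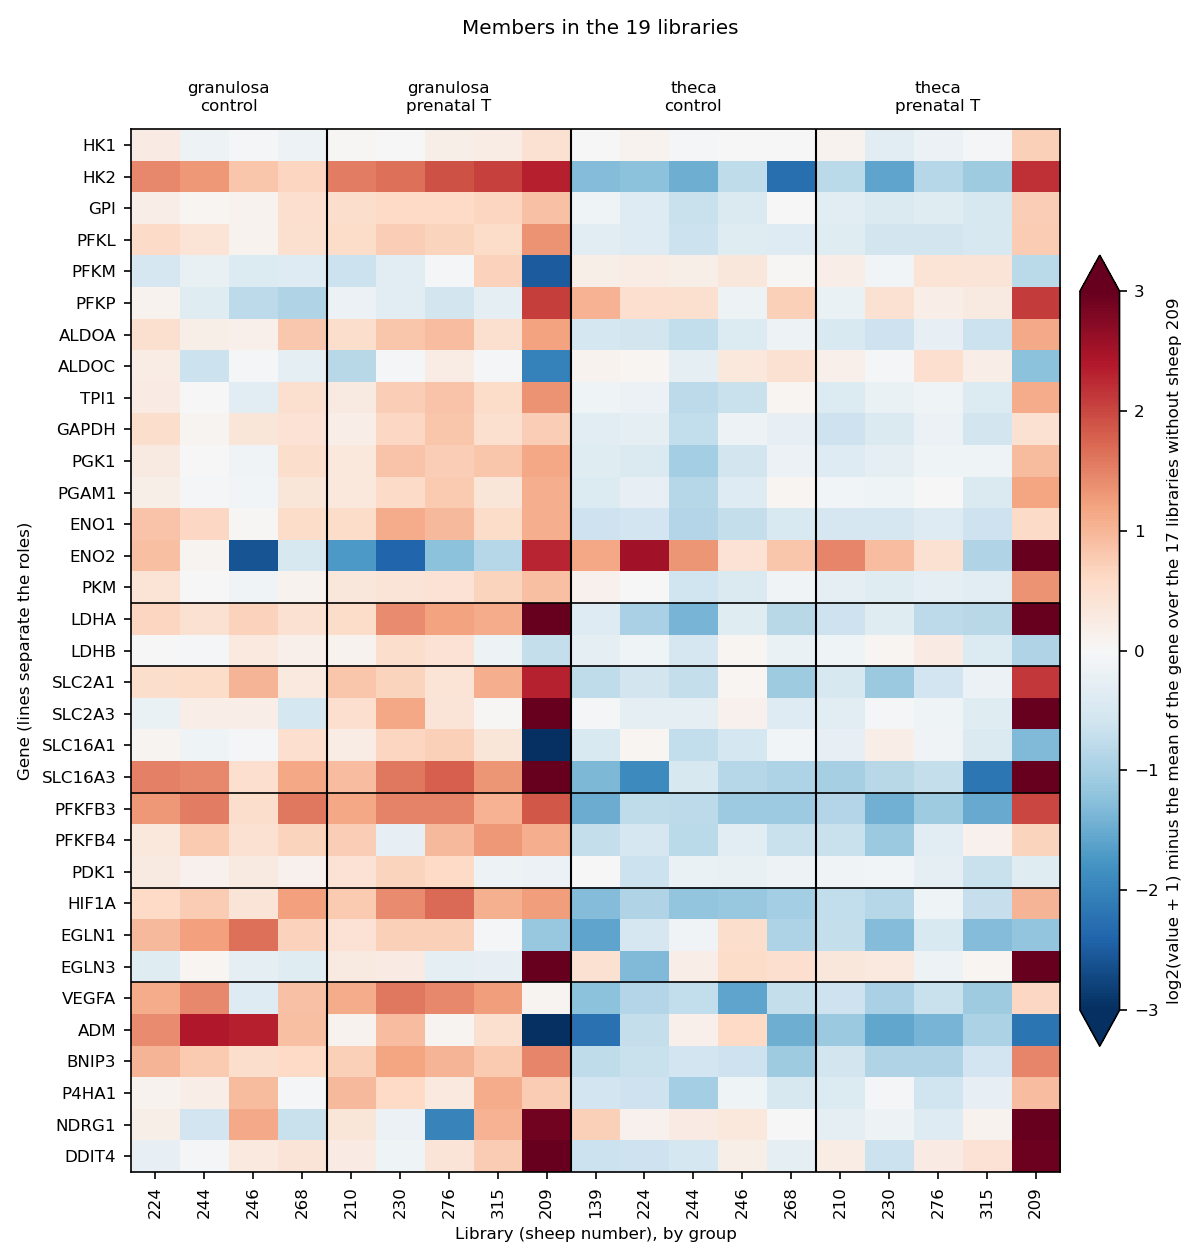
Level of the 33 genes (rows, lines between roles) in the 19 libraries (columns, by layer and treatment, sheep 209 last in each prenatal T group), as log2(value + 1) minus the gene's mean over the 17 libraries without sheep 209. Most rows are red in granulosa and blue in theca, and both columns of sheep 209 break the pattern, with 26 members above every other theca library.

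Most of the 33 genes were higher in granulosa than in theca. In the 9 animals with both layers, 25 members were higher in granulosa, 4 were lower and 4 were not called (limma with the animal as a block, Benjamini-Hochberg adjusted p under 0.05 over 16269 genes). Of all genes tested, 28.6% were called higher and 28.0% lower, 56.6% in all, and the difference was above 0 for 27 of 33 members and 52.0% of all genes. The median log2 difference, granulosa minus theca, was 0.76 over the members and 0.02 over all genes. Without sheep 209 there were 26 members higher (31.7% of all genes) and 4 lower (31.0%), with a median of 0.82, and 62.7% of all genes were called. The difference was then above 0 for 27 of 33 members and 51.6% of all genes. edgeR and DESeq2 on recovered reads each called 29 members (56.9% and 59.4% of all genes), and 29 and 30 without sheep 209 (62.6% and 62.3%). In each of the 9 animals the granulosa library exceeded the theca library of the same animal for 18 members (15.8% of all genes), and in each of the 8 animals other than sheep 209 for 25 members (23.1% of all genes tested). In bulk samples a larger share of cells of a type and more RNA per cell cannot be told apart. Taken by treatment, 25 members were higher and 3 lower in control animals (23.6% and 23.9% of all genes), and 25 were higher and 1 lower of the 32 that passed the filter in prenatal T animals without sheep 209 (25.2% and 24.5%). With sheep 209, prenatal T animals alone gave 22 higher and 1 lower (16.6% and 17.2%).

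Among glycolytic enzymes 10 of 15 were higher in granulosa, 4 were lower and 1 was not called. HK2, the inducible hexokinase of the first step, had the largest difference of the 33. HK2 ran from 394 to 1050.3 (median 701) in the 8 granulosa libraries and from 51.5 to 147 (median 106) in the 9 theca libraries of the other animals, with no overlap. The difference was 2.40 ± 0.28 on the log2(value + 1) scale (SE, limma over 9 animals with both layers, adjusted p = 2.89e-05), a 5.26-fold higher level, and 2.68 ± 0.16 without sheep 209, whose libraries were at 1266 in granulosa and 1143 in theca. The other enzymes of the main path differed less, from 0.47 ± 0.12 for PKM (pyruvate kinase, the last step; adjusted p = 0.00724) to 1.16 ± 0.11 for ENO1 (enolase; adjusted p = 6.83e-06). Between them lay PGAM1 at 0.49, TPI1 at 0.64, GPI at 0.72, PGK1 at 0.76, GAPDH at 0.78, ALDOA at 0.92 and PFKL at 0.93. HK1, the widely expressed hexokinase, was at 1965 to 2627 in granulosa and 1757 to 2378 in theca, and its difference of 0.05 ± 0.07 did not pass the test (adjusted p = 0.595).

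Each of the 4 members lower in granulosa shares its step with another form (ENO1, PFKL or ALDOA) that was higher there. ENO2, the neuronal enolase, was low, at 0.723 to 18.3 (median 4.09) in granulosa and 4.55 to 58.9 (median 18.8) in theca of animals other than sheep 209, with overlap. Its difference was -1.96 ± 0.36 (limma adjusted p = 0.000705). PFKP, the platelet phosphofructokinase, ran from 271 to 548 (median 399) in granulosa and 445 to 1052 (median 696) in theca, and its difference was -0.62 ± 0.14 (adjusted p = 0.00323). PFKM, the muscle form of the same enzyme, ran from 495 to 1243 (median 601) and 725 to 1019 (median 880.4), a difference of -0.57 ± 0.16 (adjusted p = 0.00851). The PFKM difference was -0.44 without sheep 209, the animal with the lowest value (-1.69). The ranges of both phosphofructokinases overlapped between layers. ALDOC, the brain aldolase, ran from 84 to 175 (median 145) and 122 to 213 (median 168), a difference of -0.39 ± 0.13 (adjusted p = 0.0265) that was not called when sheep 210 (adjusted p = 0.0669) or sheep 268 (0.0652) was left out. No member was lower in granulosa in every animal.

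**Figure D2:**
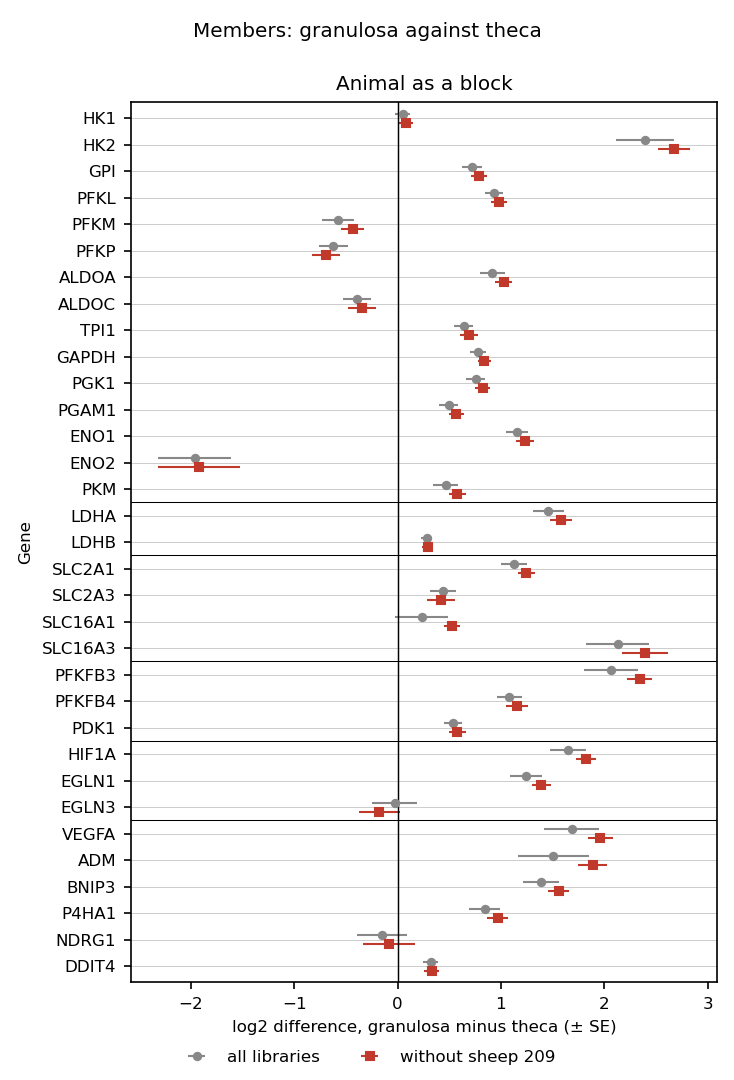
Log2 difference of each member between layers, granulosa minus theca, with its SE, from the fit with the animal as a block (grey circles, 9 animals with both layers; red squares, the 8 without sheep 209). Points right of 0 are higher in granulosa: 25 of 33 passed the test on that side and 4 on the other, with HK2 at 2.40 and ENO2 at -1.96.

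Both lactate dehydrogenase genes were higher in granulosa, as were 3 of the 4 transporters. LDHA, the subunit that favours lactate formation, ran from 1630.0 to 3182 (median 1890.0) in granulosa and 449.9 to 927 (median 692) in theca of animals other than sheep 209, with no overlap. Its difference was 1.46 ± 0.15 (limma adjusted p = 1.04e-05). LDHB, the subunit of the heart form, differed by 0.28 ± 0.05 (adjusted p = 0.000757). Among transporters, SLC16A3 (MCT4), a lactate exporter of glycolytic cells, ran from 145 to 354 (median 266) in granulosa and 21.6 to 72.3 (median 53.3) in theca, with no overlap and a difference of 2.13 ± 0.31 (adjusted p = 0.000134). SLC2A1 (GLUT1), the basal glucose transporter, differed by 1.13 ± 0.13 (adjusted p = 2.25e-05) and SLC2A3 (GLUT3), a transporter of high glucose affinity, by 0.44 ± 0.13 (adjusted p = 0.0112). SLC16A1 (MCT1), which carries lactate in either direction, was not called with all libraries at 0.23 ± 0.26 (adjusted p = 0.467) and was called without sheep 209 at 0.53 ± 0.08 (adjusted p = 0.000123).

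All 3 switches of glucose use were higher in granulosa. PFKFB3, which makes the activator of phosphofructokinase, ran from 1405 to 2890.5 (median 2540.1) in granulosa and 337 to 568 (median 457) in theca of animals other than sheep 209, a gap between layers with no overlap and a difference of 2.07 ± 0.26 (limma adjusted p = 5.12e-05). PFKFB4, a second enzyme of this kind, differed by 1.08 ± 0.12 (adjusted p = 2.28e-05). PDK1, the kinase that keeps pyruvate out of the mitochondrial cycle by inhibiting pyruvate dehydrogenase, differed by 0.54 ± 0.09 (adjusted p = 0.000371).

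Of the oxygen sensing genes, HIF1A and EGLN1 were higher in granulosa and EGLN3 was not called. HIF1A ran from 12915 to 31968 (median 18731) in the 8 granulosa libraries and from 3972 to 8961 (median 5217) in the 9 theca libraries of the other animals, with no overlap, and differed by 1.65 ± 0.18 (limma adjusted p = 1.58e-05). EGLN1 differed by 1.24 ± 0.15 (adjusted p = 4.25e-05), with granulosa at 5447 to 17676 and theca at 1881 to 8041. EGLN3, a hydroxylase that HIF induces, was at 42.2 to 66.8 in granulosa and 21.5 to 81.2 in theca, a difference of -0.03 ± 0.22 (adjusted p = 0.93). Of the hypoxia-responsive genes 5 of 6 were higher in granulosa. VEGFA, the vascular growth factor, ran from 868 to 3372 (median 2568) in granulosa and 373 to 732 (median 611) in theca, with no overlap and a difference of 1.68 ± 0.26 (adjusted p = 0.000246). ADM, the vasodilator peptide adrenomedullin, ran from 2598 to 12889 (median 4601) and 518 to 3700.0 (median 1126). These ADM ranges overlapped across animals, and the difference was 1.51 ± 0.35 with all libraries (adjusted p = 0.00312) and 1.89 ± 0.14 without sheep 209. BNIP3 differed by 1.39 ± 0.17 (adjusted p = 5.11e-05), P4HA1, a collagen prolyl hydroxylase, by 0.84 ± 0.15 (adjusted p = 0.000503) and DDIT4 (REDD1), an inhibitor of the growth kinase mTORC1, by 0.32 ± 0.07 (adjusted p = 0.00272). NDRG1, a stress-responsive gene, was not called at -0.15 ± 0.25 (adjusted p = 0.63).

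The ratio of partner genes within a library describes which form of a step a layer holds relative to the other layer, and its change between libraries does not depend on transcript length. The log2 ratio of HK2 to HK1 was -1.75 ± 0.39 in the 8 granulosa libraries and -4.35 ± 0.47 in the 9 theca libraries of animals other than sheep 209 (mean ± SD), with no overlap. PFKL to PFKM was 1.58 ± 0.42 in the 8 granulosa libraries and 0.18 ± 0.19 in the 9 theca libraries, and ALDOC to ALDOA was -5.87 ± 0.39 in the 8 granulosa libraries and -4.50 ± 0.11 in the 9 theca libraries, again with no overlap for either. The ratio of LDHA to LDHB was -1.91 ± 0.31 in the 8 granulosa libraries and -3.14 ± 0.29 in the 9 theca libraries, the highest theca library (-2.67) lying below the lowest granulosa library (-2.25). SLC16A3 to SLC16A1 was -3.16 ± 0.36 in the 8 granulosa libraries and -5.03 ± 0.68 in the 9 theca libraries, also apart. Further ratios overlapped between layers: SLC2A1 to SLC2A3 at 1.56 ± 0.51 in the 8 granulosa libraries and 0.70 ± 0.37 in the 9 theca libraries, PFKFB3 to PFKFB4 at 2.71 ± 0.62 in the 8 granulosa libraries and 1.50 ± 0.49 in the 9 theca libraries, and EGLN3 to EGLN1 at -7.56 ± 0.60 in the 8 granulosa libraries and -5.84 ± 0.91 in the 9 theca libraries. The ratios were not tested.

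**Figure D3:**
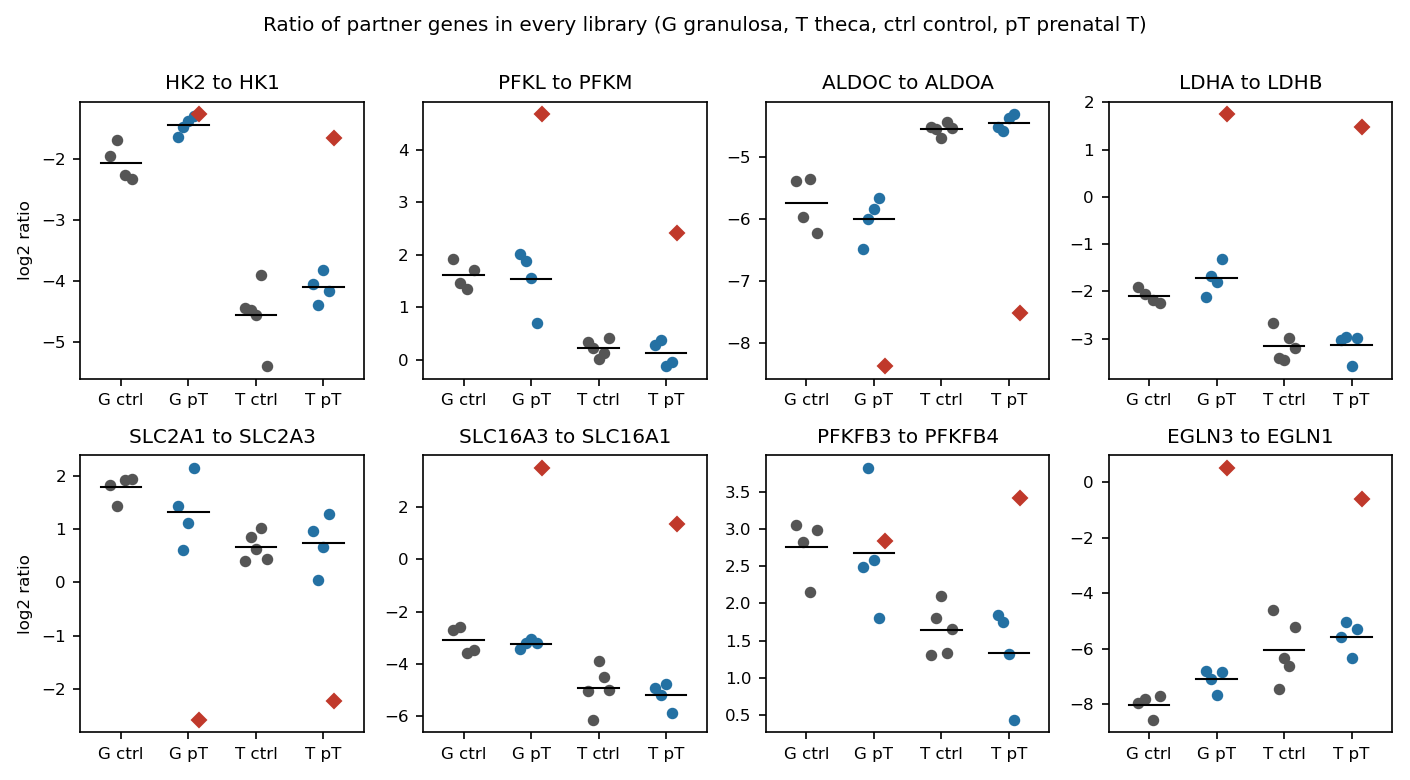
Log2 ratio of partner genes in every library by layer and treatment (grey, control; blue, prenatal T; red diamonds, sheep 209; bars, means without sheep 209). HK2 to HK1 lies between -2.32 and -1.30 in granulosa and between -5.39 and -3.82 in theca of the other animals, and sheep 209 is outside the range of its layer for most ratios.

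Other genes of the pathways, from a list without the members, were called in both directions. Of 46 tested glucose metabolism genes, 22 were higher in granulosa, 11 lower and 13 not called. Of 47 tested genes of oxygen sensing and hypoxia, 13 were higher, 18 lower and 16 not called. Without sheep 209 the former had 23 higher and 13 lower of 46 and the latter 18 higher and 17 lower of 46. Over all genes tested, 28.6% were called higher and 28.0% lower with all libraries, and 31.7% and 31.0% without sheep 209. The largest differences towards granulosa among them were PC (pyruvate carboxylase) at 1.43 ± 0.09, MIF (a cytokine) at 1.37 ± 0.12, BPGM (bisphosphoglycerate mutase) at 1.21 ± 0.17 and TFRC (transferrin receptor) at 1.20 ± 0.06, with ANGPT2, a vessel-destabilizing ligand, at 1.41 ± 0.08 in place of TFRC without sheep 209. The largest differences towards theca were CAV1 (caveolin) at -3.20 ± 0.23, CALCRL at -2.76 ± 0.16, STC1 (stanniocalcin) at -2.41 ± 0.39 and RAMP2 at -2.22 ± 0.16, with limma adjusted p of 0.000313 for STC1 and smaller for the others. CALCRL and RAMP2 together form an adrenomedullin receptor, and both were higher in theca, where ADM itself was lower. KDR, the main signalling receptor of VEGFA, chosen after its values were seen, was likewise lower in granulosa at -1.70 ± 0.18 (adjusted p = 1.29e-05), while FLT1, a further VEGFA receptor, was not called at -0.22 ± 0.19 (adjusted p = 0.343). Endothelial markers, which include KDR, summed to 11822 to 20089 in theca and 1522 to 4079 in granulosa of animals other than sheep 209, and their part in these differences was not tested. Smooth muscle and pericyte markers summed to 104769 to 218229 and 18922 to 43619.9, in the same order. Genes of the luteal list (LHCGR, STAR, HSD3B1, PTGFR and OXT) summed to 3273 to 8526 and 529 to 7517 in that order, which does not by itself show luteal cells. The luteal sum of 7517 was that of prenatal T sheep 315, and no other granulosa library exceeded 1772.

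In granulosa, prenatal T was then compared with control. No member passed the test (limma, 0 of 33, 0.0% of 16269 genes; smallest adjusted p over the members 0.879), and none did without sheep 209 (0.0% of 16021 genes; smallest 0.718). The log2 change was above 0 for 26 of 33 members (48.5% of all genes), with a median of 0.39 over members and -0.01 over all genes, and for 29 of 33 without sheep 209 (46.8%), with medians of 0.23 and -0.02. At an unadjusted p under 0.05 there were 8 members, 6 up and 2 down (4.25% of all genes, 1.19% up and 3.05% down), and without sheep 209 there were 11, 9 up and 2 down (6.8%, 1.86% and 4.94%). The number was 4 of 33 when control sheep 244 was left out (1.96% of all genes) and also 4 when control sheep 246 was (4.07%). edgeR on the recovered reads called 0 members (11 at an unadjusted p under 0.05, beside 5.97% of all genes, and also 11 without sheep 209, beside 6.84%). DESeq2 called 0 members with all libraries (10 at an unadjusted p under 0.05, beside 7.94% of all genes, 5 without an adjusted p, 0.131% of all genes called) and ADM alone without sheep 209 (0.195%).

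The glycolytic enzymes held all 6 members on the upper side at an unadjusted p under 0.05: HK2, GPI, TPI1, PGK1, PGAM1 and PKM. HK2 was at 679, 619, 446 and 394 in controls and 1266, 724, 791, 948 and 1050.3 in prenatal T animals. Every prenatal T library lay above every control, a gap of 679 to 724, and the log2 change was 0.84 ± 0.22 (SE, n = 4 and 5, limma adjusted p = 0.879), or 0.74 ± 0.20 without sheep 209. GPI, glucose-6-phosphate isomerase, was at 2084, 1906, 1969 and 2598 in controls and 3361, 2628, 2766, 2754 and 2877 in prenatal T animals. It was the other member whose groups did not overlap, all prenatal T libraries being above (0.688% of all genes, 1.09% without sheep 209), with a change of 0.43 ± 0.13. PGK1, phosphoglycerate kinase, was at 2659.5, 2208, 2034 and 3182 in controls and 4895, 2733, 3987, 3658 and 3917 in prenatal T animals, a change of 0.60 ± 0.19. Its groups overlapped through control sheep 268 and prenatal T sheep 210. PGAM1, phosphoglycerate mutase, was at 2075, 1798, 1729 and 2368 and 3878, 2298, 2745, 3142 and 2377, a change of 0.52 ± 0.18. TPI1, triosephosphate isomerase, was at 3579, 2979.9, 2376 and 4216 and 7597, 3622, 5036, 5456 and 4414, a change of 0.66 ± 0.24. For both genes sheep 209 was the highest library and control sheep 268 the highest control, above the lowest prenatal T animal. Without sheep 209, 14 of 15 enzymes had a change above 0, the exception being the low ENO2.

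LDHA was at 1866, 1630.0, 1914 and 1641 in control granulosa and 14446, 1752, 3182, 2742 and 2564 in prenatal T granulosa, where sheep 210 lay among the controls. The change was 1.01 ± 0.53 with all libraries and 0.51 ± 0.17 without sheep 209 (limma adjusted p = 0.718). PGK1 was also at 0.51 in the fit without sheep 209. SLC2A3 and SLC16A1 also had an unadjusted p under 0.05 without sheep 209, at 0.60 ± 0.26 and 0.39 ± 0.17. The log2 ratio of HK2 to HK1 ran from -2.32 to -1.68 in controls and from -1.64 to -1.26 in prenatal T animals, with no overlap. The ratio of LDHA to LDHB without sheep 209 was -2.10 ± 0.15 in controls and -1.72 ± 0.34 in prenatal T animals, with overlap. Apart from these genes, ADM and EGLN1, the members, including all 3 switches, had an unadjusted p above 0.05 in both fits. The log2 ratio of EGLN3 to EGLN1 did not overlap either, at -8.57 to -7.71 in controls and -7.66 to 0.51 in prenatal T animals. The ratios were not tested for treatment.

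Lower values in prenatal T granulosa were seen for ADM and EGLN1. ADM was at 6583, 12889, 12367 and 4581 in controls and 184, 2624, 4621, 2598 and 3439.9 in prenatal T animals. Sheep 209 was far below the rest, and among the others only prenatal T sheep 230 exceeded the lowest control, sheep 268. The change was -2.19 ± 0.88 with all libraries (limma adjusted p = 0.879) and -1.37 ± 0.34 without sheep 209 (adjusted p = 0.718), where DESeq2 on the recovered reads gave -1.42 and an adjusted p of 0.0202. EGLN1 was at 11051, 13167, 17676 and 9038 in controls and 2576, 7619, 9207, 9233 and 5447 in prenatal T animals, a change of -0.996 ± 0.39 with all libraries and -0.68 ± 0.24 without sheep 209. Control sheep 244 and 246 held the highest values of both genes in granulosa and also in theca, where ADM was at 518, 1496, 2729, 3700.0 and 885 in controls and EGLN1 at 1881, 3955, 5231, 8041 and 2969.9. With sheep 244 or 246 left out and sheep 209 kept, neither ADM nor EGLN1 had an unadjusted p under 0.05. No fit left out either of these controls together with sheep 209. VEGFA, another HIF target, was 2453, 3044, 868 and 2087 in controls and 1186, 2449, 3372, 3087 and 2683 in prenatal T animals, a change of 0.58 ± 0.34 without sheep 209 (limma adjusted p = 0.753).

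**Figure D4:**
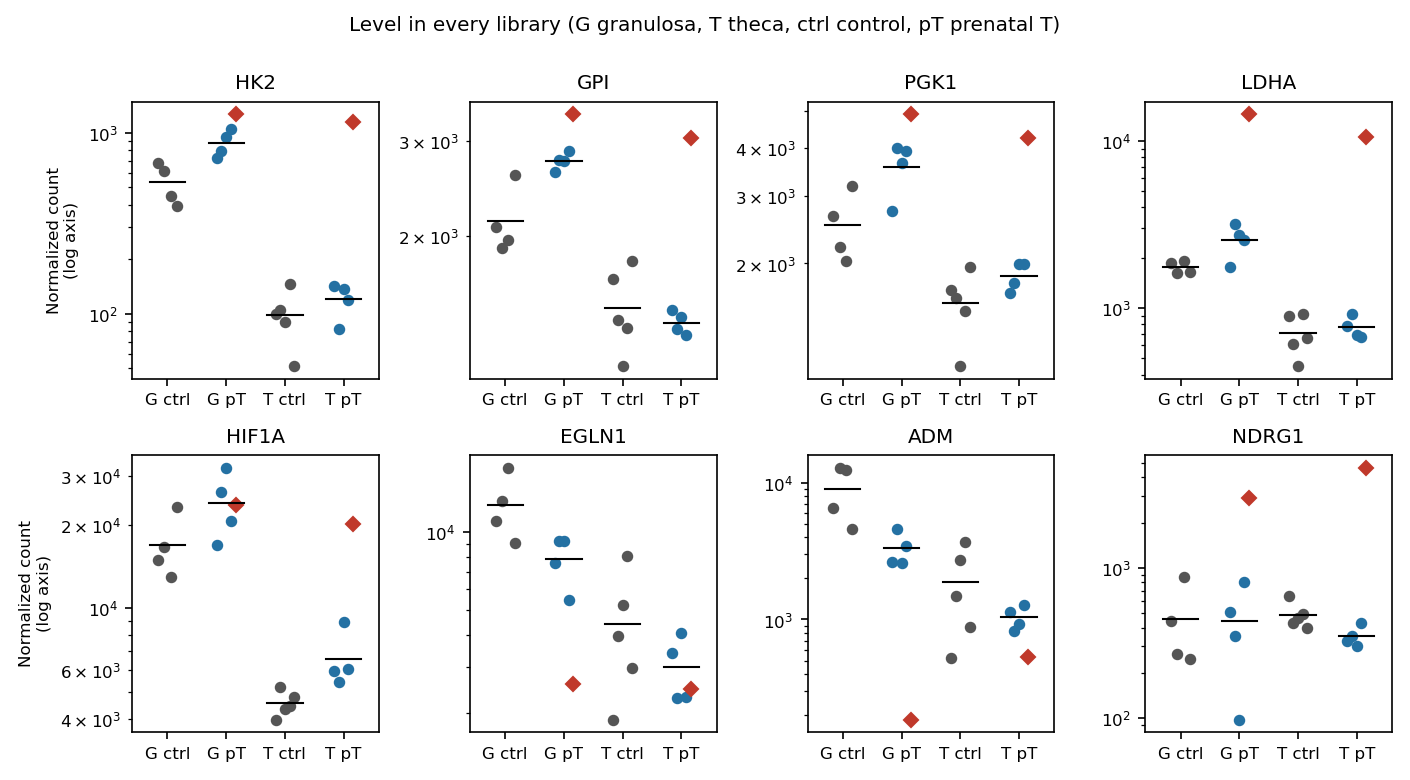
Normalized count (log axis) of 8 members in every library by layer and treatment (grey, control; blue, prenatal T; red diamonds, sheep 209; bars, means without sheep 209). Prenatal T granulosa lies above control granulosa for HK2 and GPI without overlap, control sheep 244 and 246 lead ADM and EGLN1, and sheep 209 is far above the rest for LDHA and NDRG1.

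The theca marker sum in granulosa libraries was 34506 to 84267 in the 4 controls (12 of 12 genes in the table). In the 4 prenatal T animals other than sheep 209 it was 20928 to 41885, and the ranges overlapped. Granulosa markers (12 of 13) summed to 52766 to 170676 in the controls and 76399 to 192035 in those prenatal T animals. Most members, ADM and EGLN1 included, were lower in theca than in granulosa. Smooth muscle and pericyte markers (8 of 8) in granulosa libraries were at 28445 to 43619.9 in controls and 18922 to 27530.4 in the same prenatal T animals. In theca libraries the theca marker sum was 652398 to 891121 in controls and 595646 to 715484 in prenatal T animals other than sheep 209. Genes of the luteal list (5 of 5) in theca libraries summed to 3273 to 4667 in controls. In the same prenatal T animals their sum was 4580.1 to 8526, where only sheep 230 lay below the highest control. Neither the cells that hold these markers nor their part in the prenatal T comparisons was tested.

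In theca no member passed the test of prenatal T against control (limma, 0 of 33, 0.0% of all genes; smallest adjusted p 0.641), nor without sheep 209 (0.0%; smallest 0.377). The change was above 0 for 26 of 33 members with all libraries (50.4% of all genes) and a median of 0.34, and for 18 of 33 without sheep 209 (48.5%) and a median of 0.03, beside 0.00 and -0.01 over all genes. At an unadjusted p under 0.05 there was 1 member, HIF1A (7.75% of all genes), and without sheep 209 there were 2, HIF1A up and NDRG1 down (11.9%). edgeR called 0 members (7 at an unadjusted p under 0.05, and 2 without sheep 209, beside 10.2% and 12.4% of all genes), and DESeq2 called 0 (3 and 2 at an unadjusted p under 0.05, beside 11.0% and 12.8%, with 11 members lacking an adjusted p with all libraries; 0.0455% and 0.364% of all genes called).

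HIF1A was at 3972, 5217, 4351, 4468 and 4802 in control theca and 20047, 5926, 5445, 8961 and 6056 in prenatal T theca. It was the only member whose theca groups did not overlap, with every prenatal T library above every control (1.24% of all genes, 2.47% without sheep 209). The change was 0.84 ± 0.32 with all libraries and 0.51 ± 0.15 without sheep 209 (SE, n = 5 and 4, limma adjusted p = 0.377), and the lowest prenatal T library, sheep 230, was close to the highest control, sheep 224. In granulosa HIF1A was at 14915, 16579, 12915 and 23124 and 23482, 16854, 26176, 31968 and 20609, overlapping, with a change of 0.49 ± 0.24 without sheep 209 (adjusted p = 0.745). PGK1 was at 1703, 1622, 1081, 1507 and 1953 in control theca and 4255, 1678, 1781, 1989 and 1993 in prenatal T theca. The groups overlapped, and the change was 0.50 ± 0.26 with all libraries and 0.26 ± 0.15 without sheep 209. ENO1 was at 5123, 5319, 4282, 4832 and 5706 in controls and 11815, 5562, 5546, 6047 and 5172 in prenatal T animals, a change of 0.37 ± 0.22 and 0.15 ± 0.10. For both enzymes sheep 209 was far above every other theca library.

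Among hypoxia-responsive genes in theca, DDIT4 was at 413, 420.4, 445, 725 and 532 in controls and 4970.0, 756, 412, 766 and 876 in prenatal T animals. Its change was 1.02 ± 0.55 with all libraries and 0.45 ± 0.24 without sheep 209, the groups overlapping through prenatal T sheep 230 alone. P4HA1 was at 674, 650.2, 496, 921 and 721 and 1923, 759, 972, 660.4 and 848, a change of 0.49 ± 0.28 and 0.24 ± 0.17. NDRG1 was at 649, 431, 467, 491 and 396 in controls and 4625, 325, 354, 300.0 and 427 in prenatal T animals. Its sign turned with sheep 209, from 0.28 ± 0.67 with all libraries to -0.46 ± 0.16 without it (limma adjusted p = 0.38), and only prenatal T sheep 315 then reached above the lowest control. PFKP, at 1052, 719, 706, 453 and 833 and 2157, 445, 696, 578 and 608, likewise went from 0.04 ± 0.39 to -0.34 ± 0.22. ADM in theca was 534, 1126, 828, 933 and 1274 in prenatal T animals, within the range of the controls, with a log2 difference of -0.52 ± 0.49 without sheep 209 (adjusted p = 0.672).

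**Figure D5:**
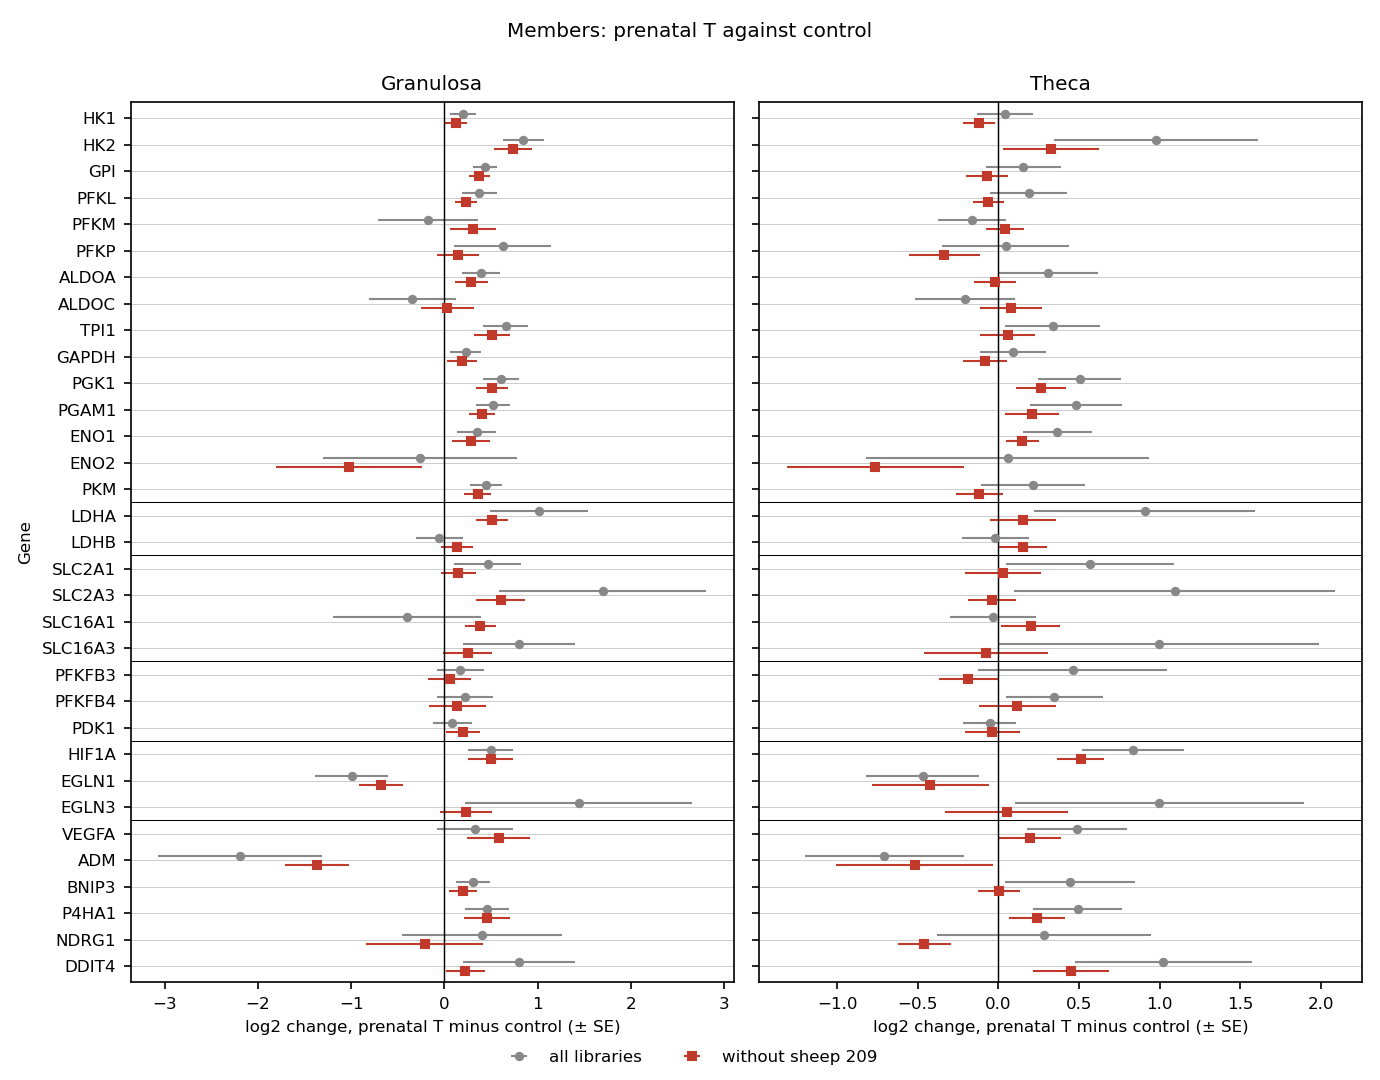
Log2 change of each member with prenatal T, prenatal T minus control, with its SE, in granulosa (left) and theca (right), with all libraries (grey circles) and without sheep 209 (red squares). In granulosa most points stay right of 0 in both fits (26 and 29 of 33), while in theca fewer do so without sheep 209 (26 and 18 of 33), the scales of the panels differ, and none passed the test in either layer.

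The difference between the layers' changes was tested itself, with the animal as a block. No member was called (limma, 0 of 33, 0.0% of all genes; smallest adjusted p 0.96), nor without sheep 209 (0.0%; smallest 0.489). With all libraries 15 of 33 differences, granulosa minus theca, were above 0 (46.7% of all genes), with a median of -0.02, and 1 member had an unadjusted p under 0.05 (4.66% of all genes). That member was SLC2A3 at 0.58 ± 0.19, followed by ADM at -1.11 ± 0.64 and PFKP at 0.45 ± 0.27. Without sheep 209, 29 of 33 were above 0 (45.8%), with a median of 0.21 beside -0.03 over all genes, and 6 had an unadjusted p under 0.05 (8.28% of all genes): GPI, TPI1, PKM, ALDOA, GAPDH and SLC2A3. GPI had the smallest p at 0.40 ± 0.09 (adjusted p = 0.489). Its theca values were 1666, 1400.3, 1153, 1354 and 1805 in controls and 3044, 1463, 1348, 1422 and 1314 in prenatal T animals, overlapping where granulosa did not. TPI1 followed at 0.40 ± 0.12, with theca at 2731, 2678, 1737, 1897 and 3104 and 6531, 2273, 2619, 2735 and 2271. PKM was at 0.39 ± 0.12, with granulosa at 11719, 8695, 8173 and 9491 and 16535, 11183, 11443, 11811 and 14066 and theca at 9600.2, 8848, 5805, 6545 and 8208 and 22207, 7316, 6819, 7151 and 6978. The PKM groups overlapped in both layers. edgeR called 0 members (1 at an unadjusted p under 0.05, and 5 without sheep 209, beside 4.88% and 8.76% of all genes), and DESeq2 called 0 (1 and 6 at an unadjusted p under 0.05, beside 5.33% and 7.17%; 0.111% and 0.2% of all genes called).

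Of the other pathway genes none was called for prenatal T in either layer or for the difference (limma, smallest adjusted p 0.377). At an unadjusted p under 0.05 there were 3 of 46 glucose metabolism genes and 2 of 47 hypoxia genes in granulosa (4.25% of all genes) and 4 and 8 in theca (7.75%). Without sheep 209 there were 4 of 46 and 4 of 46 in granulosa (6.8%) and 3 and 5 in theca (11.9%).

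Sheep 209 was described by itself. In its granulosa library 20 members lay above the range of the 8 other granulosa libraries, 7 below and 6 within (32.9% and 32.1% of all genes above and below). In its theca library 26 lay above the 9 others, 4 below and 3 within (30.5% and 30.0%). SLC2A3 was at 19298 in granulosa and 13183 in theca, 28.8 and 39.9 times the highest of the others. EGLN3 was at 3668 in granulosa and 1635 in theca, 55 and 20.1 times the highest of the others. The fold over the highest other library was largest for EGLN3 among the members in granulosa and for SLC2A3 in theca. LDHA was at 14446 in granulosa and 10539 in theca, against a highest value of 3182 and 927. These are a high-affinity glucose transporter, a HIF-induced hydroxylase and the lactate-forming subunit. SLC16A3 was at 1856 in granulosa and 1845 in theca, NDRG1 at 2926 in granulosa and 4625 in theca, DDIT4 at 5879.9 in granulosa and 4970.0 in theca and PFKP at 2122 in granulosa and 2157 in theca, all above every other library of the layer. The 7 members below the others in its granulosa were PFKM, ALDOC, LDHB, SLC16A1, PDK1, EGLN1 and ADM, and the first 4 of these were also below in its theca. SLC16A1 was at 166 in granulosa and 722 in theca against at least 1665 and 1083 in the others, and ADM was at 184 in granulosa and 534 in theca. Its log2 ratio of LDHA to LDHB was 1.75 and 1.49, above 0 in both libraries, where the others ran from -2.25 to -1.31 and -3.58 to -2.67. SLC16A3 to SLC16A1 was 3.48 and 1.35, where no other library exceeded -2.58. Its layers lay close together for HK2 (1266 in granulosa and 1143 in theca) and HIF1A (23482 in granulosa and 20047 in theca). The neutrophil, leukocyte and epithelial marker sums of these 2 libraries stand above, and their part in the members' levels was not tested.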

How the data were processed

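Granulosa and theca RNA of sheep ovaries was sequenced after removal of ribosomal RNA with a stranded total RNA kit, per the labels' protocols. The deposited table holds 1 signal value for each gene in each library, a count that the authors scaled by a library size factor. The submitters' processing notes name STAR 2.6.0c, Subread 1.6.1 (featureCounts), FastQC 0.11.5, MultiQC 0.9 and DESeq2. No source used here gives the genome build. The labels list 20 samples, and 19 libraries are in the table. Granulosa of control sheep 139 was not analysed here. All values (100%) of a library were multiples of a single step, to a relative tolerance of 1e-06, and dividing by it recovered the reads, 12.7 to 26.0 M per library. Among 36 pairs of libraries of a group none repeated another (chi-square per degree of freedom of 25.9 or more).

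Genes reaching a value of 10 in 5 or more libraries were tested with limma 3.58.1 (R 4.3.3, mean-variance trend, two-sided) on log2(value + 1), a scale that understates changes of low genes, with p adjusted by Benjamini-Hochberg at 0.05. The prenatal T comparisons used the libraries of 1 layer, and the layer comparison and the difference of effects had the animal as a block. Sheep numbers pair the layers, since both come from the same animal; deviations of the layers of an animal from their group means correlated at 0.42 to 0.80 across genes, best with the own other layer in 9 of 9 animals. Alternatives were edgeR 4.0.16 and DESeq2 1.42.0 on recovered reads, other scalings, other blocks and leaving out animals. The code was tested on simulated data. Whether the several follicles of an animal differ is not recorded, and p-values measure the spread between animals.

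The members, pathway lists and marker lists were chosen with earlier results of these data known. Marker lists covered granulosa, theca, endothelium, smooth muscle and pericyte, leukocyte, neutrophil, epithelium, luteal cells, oocyte and red blood cell. Values in every library are printed, with all libraries and again without sheep 209, for the 5 members of smallest p in each prenatal T comparison and the 3 of smallest p for the difference, and by range for the 6 largest differences in each direction between layers among members past the threshold. Other pathway genes are named as the 4 largest in each direction between layers with a mean of at least 100. EGLN1, VEGFA in granulosa, ADM in theca and KDR, FLT1, SLC2A3 and SLC16A1 in single comparisons were added after their values were seen.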

Additional observations from a re-analysis of the deposited data

Results flagged for a closer look

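Within each group of 4 or 5 libraries, the highest or lowest value of a member was compared with its nearest neighbour relative to the range of the group (Dixon's criterion). Over 132 sets of values 36 single libraries stood apart. Chance alone gives about 1 in 20 for independent, normally distributed values. The members share their libraries, so the count cannot be set against that rate. Sheep 209 accounted for 33 of the 36, 23 in theca and 10 in granulosa, always on the high side. The criterion ran on normalized counts without logs, a scale on which low values are harder to flag. In the granulosa library of sheep 209, 7 members lay below every other granulosa library.

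In prenatal T theca the library of sheep 209 stood apart with HK2 at 1143, GPI at 3044, PFKL at 2346, PFKP at 2157, ALDOA at 11811, TPI1 at 6531, PGK1 at 4255, PGAM1 at 4199, ENO1 at 11815, ENO2 at 251, PKM at 22207, LDHA at 10539, SLC2A1 at 2817, SLC2A3 at 13183, SLC16A3 at 1845, PFKFB3 at 3899.6, HIF1A at 20047, EGLN3 at 1635, VEGFA at 1741, BNIP3 at 3283, P4HA1 at 1923, NDRG1 at 4625 and DDIT4 at 4970.0. In prenatal T granulosa it stood apart with PFKL at 3498, PFKP at 2122, ENO2 at 49.5, LDHA at 14446, SLC2A1 at 3222, SLC2A3 at 19298, SLC16A3 at 1856, EGLN3 at 3668, NDRG1 at 2926 and DDIT4 at 5879.9. The other 3 were control theca libraries: sheep 224 was high for HK1 at 2372 and for ENO2 at 58.9, and sheep 244 was low for PFKL at 878.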

How the results depend on the processing

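Alternatives that leave out sheep 209 together with another change, or sheep 209 and 315 together, were chosen after seeing the data. The count of members called stayed at 0 for prenatal T in granulosa under all settings except DESeq2 without sheep 209, which called 1 (ADM), and at 0 in theca and for the difference under all settings; leaving out each animal gave 0 to 0. Between layers the count was between 22 and 30 over all settings, 28 to 30 with an animal left out. Of the members of smallest p in theca, in either fit, NDRG1 and PFKP reversed sign. Other members changed sign too, since 26 of 33 were above 0 with all libraries and 18 without sheep 209. Without sheep 209 NDRG1 was at -0.46 by limma, with edgeR and with DESeq2, -0.44 with TMM scaling, -0.45 with scaling to the library total, and -0.56 with sheep 315 left out too. PFKP was at -0.34, -0.36 with edgeR, -0.36 with DESeq2, -0.32 with TMM scaling, -0.33 with scaling to the library total and -0.36 with sheep 315 left out too. With all libraries it was at -0.0127 with scaling to the library total and -0.13 without sheep 246; leaving out 1 animal gave -0.34 to 0.23 for PFKP and -0.46 to 0.52 for NDRG1. The causes were not tested. Between layers with no replicate block 22 members were called (21 higher, 1 lower; 36.5% of all genes), and PFKP, PFKM and ALDOC were not (adjusted p = 0.114, 0.121 and 0.29). All groups in 1 model with a replicate block and without sheep 209 gave -0.46 for NDRG1 and -0.34 for PFKP, and with a replicate block no prenatal T member was called in either layer. ADM (adjusted p = 0.18), PFKP (0.0732), PFKM (0.14) and ALDOC (0.133) were not called between layers in prenatal T animals alone; ALDOC was also not called in controls alone (0.178), nor without sheep 209 by edgeR (0.0587), with TMM scaling (0.0559), with scaling to the library total (0.0767) or with sheep 315 left out too (0.0523). Over all settings the PFKM difference between layers ran from -0.68 to -0.30, with a highest adjusted p of 0.182. ENO2 gave no value in prenatal T animals without sheep 209, since it did not pass the filter. Depth limits low genes such as ENO2, SLC16A3 in theca and EGLN3.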

Other observations

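Some pathway genes that are no members showed patterns between libraries that belong to no comparison above, and were chosen after their values were seen. PGM2, a phosphoglucomutase that joins sugar phosphates to glycolysis, was at 869, 897, 1205 and 973 in control granulosa and 2530.3, 4959, 3531, 997 and 971 in prenatal T granulosa. In theca it was at 1552, 991, 778, 875 and 751 in controls and 2971, 2947, 1800.2, 968 and 959 in prenatal T animals. The same animals, sheep 209, 210 and 230, held the highest values in both layers, and sheep 276 and 315 lay among the controls.

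HK3, a hexokinase known from white blood cells, was at 1971 in granulosa and 2499 in theca of sheep 209, against at most 95.8 and 77.4 in the other animals. FBP1, a gluconeogenic phosphatase, was high in sheep 209 (709 and 173) and in sheep 315 (306 and 105), while the other animals reached at most 45.2 and 25.6. Oocyte markers (7 of 8 in the table) summed to 33.2 to 561 in granulosa and 26.2 to 63.5 in theca of animals other than sheep 209, and red blood cell markers (4 of 5) to at most 3.24 in any of these libraries.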
